A study of Mus musculus with 41 samples.

Results

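The genes described are the matrix metalloproteinases (MMPs), the ADAMTS proteases and the tissue inhibitors of metalloproteinases (TIMPs), taken from the count table by symbol. The rule found 41 of the 21249 genes: 18 MMPs, 19 ADAMTS genes and all 4 TIMPs. Mmp1a, Mmp1b and Mmp24 are among the genes that were not analysed here. MMPs are zinc-dependent enzymes, secreted or held at the cell surface, that cut collagens, elastin, proteoglycans and signalling proteins, and most are made as inactive precursors. ADAMTS enzymes carry thrombospondin repeats and trim procollagens or cleave large proteoglycans such as versican and aggrecan, while TIMPs bind the active enzymes and block them. In the human uterine lining these genes take part in menstrual breakdown and repair, and in endometriosis they are studied for the attachment and remodelling of ectopic tissue.

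Gene counts came from 41 libraries of whole endometriosis lesions of mice in 11 groups. A uterine punch 4 mm wide had been glued to the peritoneal wall of a recipient aged 12 to 16 weeks in every group, and 3 injections over 6 days began on day 7. Interleukin-33 (IL-33, 1 µg each), a cytokine that activates group 2 innate lymphoid cells (ILC2s), was given to C57Bl/6J mice (wild type), Id2fl/fl mice (floxed controls) and Nmur1iCre-eGFP mice (Cre controls), which are ILC2-competent by the design. It was also given to Nmur1iCre-eGFP Id2fl/fl mice (deficient), in which cells that use Nmur1, a receptor gene of ILC2s, drive the Cre that deletes Id2. Each of these groups had 4 libraries. Deficient mice also received PBS in place of IL-33 (n = 4), IL-33 with added PBS (n = 4), or IL-33 preceded by 250000 (n = 4) or 120000 (n = 2) transferred ILC2s, and wild-type mice IL-33 preceded by 120000 ILC2s (n = 3). For lesion transfer, fragments were crossed between genotypes, Cre control into deficient and deficient into Cre control, and all recipients were given IL-33 (n = 4 each). The labels give the genotype of the fragment, and the other recipients were taken to share it. The floxed allele and the Cre are each carried by a control group, but no lesion was transferred into a floxed-control recipient. The whole lesion was sequenced, so that fewer cells of a type and less RNA per cell cannot be told apart.

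Library totals ran from 28884926 to 70526624 counts (median 42906356). The endometrial stroma markers were present in every library, with none of 10 at 0, and had a summed level of 14130 to 42643 CPM, the count scaled to a common library total. The epithelium markers ran from 19.0 to 4256 CPM, and Foxa2 among them was at 0 in 6 libraries. In 4 libraries liver markers reached at least 20090 CPM, against at most 554 CPM in the other 37: wild type replicate 4, Cre control replicate 3, wild type with 120000 ILC2s replicate 3 and, among deficient lesions with IL-33, replicate 2. Skeletal muscle markers summed to 32.2 to 41042 CPM over the 41 libraries, and no fit left libraries out for them. Of 7 ILC2 markers, 5 were lower in deficient than in competent lesions, where their sum was 11.4 to 19.4 CPM against 22.7 to 130 CPM. Libraries of the Cre controls and of the IL-33-treated deficient group have interleaved library names, while wild type, floxed controls and both lesion-transfer groups each lie in a run of their own, so that run and group cannot be told apart there.

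The level of the members spanned several orders of magnitude. Per kilobase of exon, Mmp12 (macrophage elastase) had the highest median level at 279 CPM per kb, followed by Mmp2 (gelatinase A) at 199.7, Timp2 at 134.9, Timp1 at 92.5 and Mmp19 at 84.2. The lowest medians were 0.0851 CPM per kb for Adamts13, which cleaves von Willebrand factor, 0.204 for Adamts18 and 0.379 for Timp4. All 41 members passed the filter on low counts, and only Mmp7 had a library with no count. Adamts13 was at 6.19 CPM in the deficient library with liver markers, 6.29 in the wild-type one, 10.7 in the Cre-control one and 9.23 in the wild-type one given 120000 ILC2s. In the other 37 libraries it lay at or below 1.00 CPM, so that its level followed the liver markers.

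**Figure D1:**
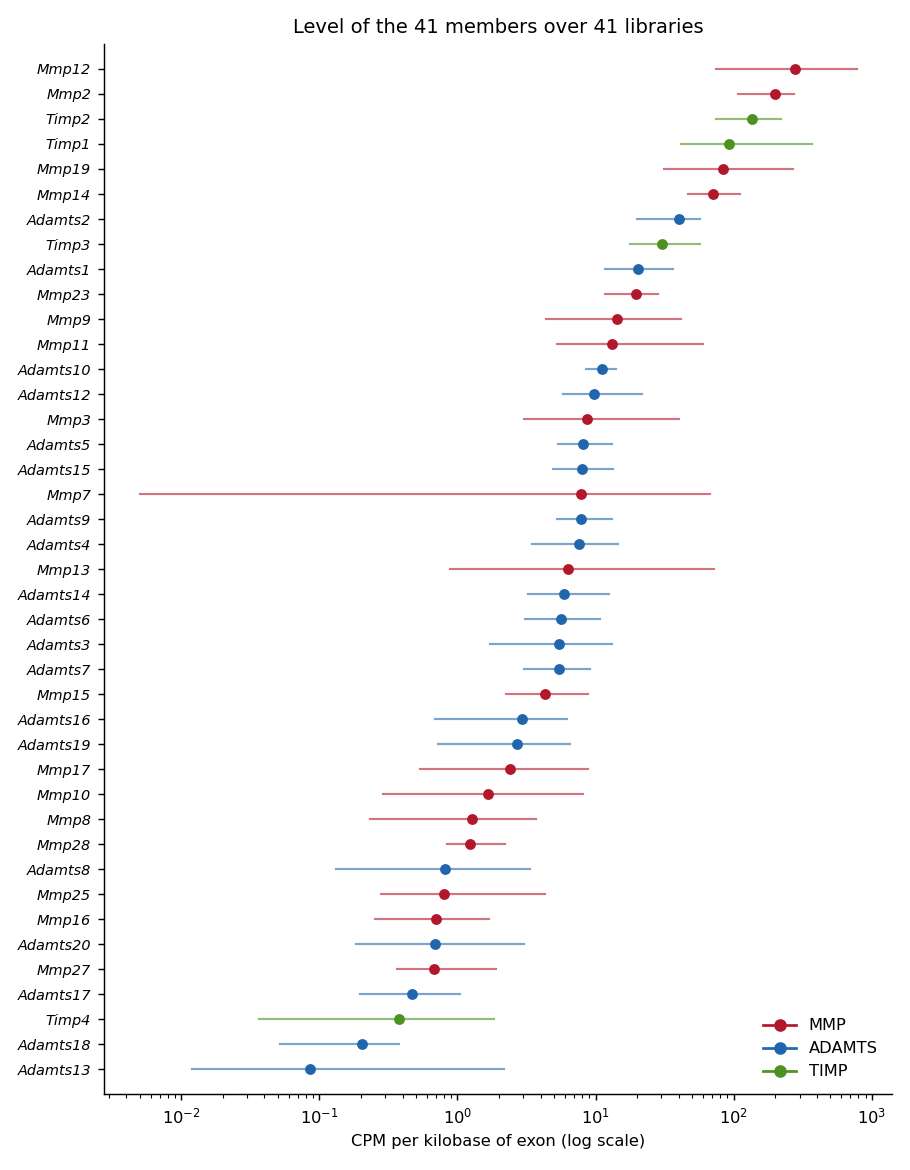
Level of each of the 41 members in CPM per kilobase of exon on a log axis, with the median over 41 libraries as a point and the lowest to highest library as a line. Mmp12 and Mmp2 lie at the top and Adamts13 at the bottom; the line of Mmp7 starts at the lowest drawn value, 0.005, because 1 library was at 0.

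Of the members, 7 are neighbours on chromosome 9 between 7272514 and 7699585 (GRCm38), in the order Mmp13, Mmp12, Mmp3, Mmp10, Mmp8, Mmp27 and Mmp7, a stretch of 427.1 kb. This row of genes holds Mmp12, Mmp13 and Mmp3, which moved in opposite directions between recipient genotypes. Promoter sequence (RefSeq, GRCm38.p6, 250 bases before to 50 bases after a start) was found for 27 of the 41 members, with 30 promoters in all. The AP-1 motif, which binds Fos and Jun proteins and is known from MMP promoters, was searched as TGAGTCA on both strands. It was present in 5 of the 30 promoters (16.7%), against 5.2% of all 32851 promoters, and all 5 belong to this row: Mmp13, Mmp12, Mmp3, Mmp10 and Mmp7. The letters are a description of the sequence and not of factor binding, and Mmp12 and Mmp7 each have a further promoter in the table without them. The 120 bases before each of the 5 starts, all on the plus strand, are shown with the motif in capitals.
Mmp13, chr9:7272394-7272513: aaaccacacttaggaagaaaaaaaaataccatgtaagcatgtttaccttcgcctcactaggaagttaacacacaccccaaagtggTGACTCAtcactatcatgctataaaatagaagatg
Mmp12, chr9:7347254-7347373: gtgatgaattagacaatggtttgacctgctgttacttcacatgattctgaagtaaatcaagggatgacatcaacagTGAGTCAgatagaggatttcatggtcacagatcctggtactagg
Mmp3, chr9:7445702-7445821: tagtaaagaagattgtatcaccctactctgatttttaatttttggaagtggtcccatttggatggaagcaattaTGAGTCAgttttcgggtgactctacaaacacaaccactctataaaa
Mmp10, chr9:7502222-7502341: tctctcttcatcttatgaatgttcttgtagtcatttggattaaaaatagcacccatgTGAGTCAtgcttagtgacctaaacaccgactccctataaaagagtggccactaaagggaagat
Mmp7, chr9:7691970-7692089: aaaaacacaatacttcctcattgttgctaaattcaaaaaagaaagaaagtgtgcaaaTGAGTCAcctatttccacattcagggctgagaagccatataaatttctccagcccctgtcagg
The first base of the motif stood at -35 from the start in Mmp13, -44 in Mmp12, -46 in Mmp3 and -63 in both Mmp10 and Mmp7. In Mmp13 the letters are on the minus strand, so that the printed strand reads TGACTCA.

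The lesion-transfer groups allow the genotype of the recipient to be compared across both kinds of fragment, as lesions in deficient against lesions in Cre-control recipients (n = 8 each, IL-33 given to all). Deficient recipients carry the floxed Id2 allele, Cre-control recipients do not, and no floxed-control library enters. The floxed allele and the lack of ILC2s in the recipient therefore cannot be told apart here. Mmp13, Mmp12, Mmp19, Timp1, Timp2, Timp3 and Adamts12 were lower in deficient recipients, and Mmp3, Adamts3 and Adamts4 were higher. These are 10 of the 41 members (24.4%) by edgeR's quasi-likelihood test at an adjusted p of 0.05, where 11.3% of all genes were called, 5.02% higher and 6.29% lower. The median log2 fold change of the members was 0.08, against 0.01 for all genes, and the members as a whole had no common direction. By family, 3 MMPs were lower and 1 higher of 18 (median -0.02), 1 ADAMTS gene lower and 2 higher of 19 (median 0.12), and 3 of 4 TIMPs lower (median -0.55). Fold changes are given as log2 ± SE, with p-values adjusted over all 21249 genes.

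Mmp13 (collagenase 3, which cleaves fibrillar collagen; chromosome 9, 7272514 to 7283331, plus strand) showed the largest difference. In Cre-control recipients it was at 93.4, 133, 16.8 and 56.2 CPM in Cre fragments and at 67.3, 191, 28.0 and 71.7 CPM in deficient fragments. In deficient recipients it was at 19.2, 2.85, 10.7 and 15.4 CPM in deficient fragments and at 15.2, 23.0, 13.1 and 11.7 CPM in Cre fragments. All 8 libraries from deficient recipients lay below the median of the others and 6 lay below their whole range. The difference was -2.57 ± 0.53, a 5.95-fold lower level (adjusted p = 0.00176, edgeR).

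Mmp12 (chromosome 9, 7344381 to 7369499, plus strand), the elastase of macrophages, was at 5615, 3914, 1828 and 4690 CPM in Cre fragments and at 2067, 4066, 3189 and 1738 CPM in deficient fragments of Cre-control recipients. In deficient recipients the levels were 1847, 1175, 1116 and 1367 CPM in deficient fragments and 1106, 2116, 600.4 and 542 CPM in Cre fragments. The highest 2 of these overlapped with the 3 lowest of the Cre-control recipients, and the other 6 lay below all of them. Its difference was -1.44 ± 0.30 (edgeR adjusted p = 0.00202). Mmp19 (chromosome 10, 128790910 to 128800824, plus strand), which cleaves basement membrane proteins, was at 219 to 587 CPM (median 347) in Cre-control and at 111 to 322 CPM (median 192) in deficient recipients, a difference of -0.85 ± 0.27 (edgeR adjusted p = 0.0352).

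Among the inhibitors, Timp1 (chromosome X, 20870166 to 20874735, plus strand) was at 214, 275, 137 and 76.6 CPM in Cre fragments and at 125, 244, 78.9 and 327 CPM in deficient fragments of Cre-control recipients. In deficient recipients it was at 91.8, 40.1, 68.2 and 73.2 CPM in deficient fragments and at 111, 88.5, 48.3 and 80.3 CPM in Cre fragments. The groups overlapped between 76.6 and 111 CPM, and the difference was -1.30 ± 0.30 (edgeR adjusted p = 0.00484). Timp2 (chromosome 11, 118301069 to 118355740, minus strand), which also takes part in activating Mmp2 at the cell surface, ranged from 507 to 851 CPM in Cre-control and from 302 to 531 CPM in deficient recipients (-0.52 ± 0.14, edgeR adjusted p = 0.0115). Timp3 (chromosome 10, 86300372 to 86349506, plus strand), which stays bound to the matrix, ranged from 230.1 to 459 and from 170 to 308 CPM (-0.57 ± 0.17, edgeR adjusted p = 0.0229). Timp4 did not pass the test (0.53 ± 0.67, 0.266 to 5.82 against 0.217 to 9.55 CPM). Adamts12 (chromosome 15, 11064790 to 11349231, plus strand), which degrades cartilage oligomeric matrix protein, was at 106 to 238 CPM in Cre-control and 63.2 to 126.5 CPM in deficient recipients (-0.64 ± 0.16, edgeR adjusted p = 0.00726).

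**Figure D2:**
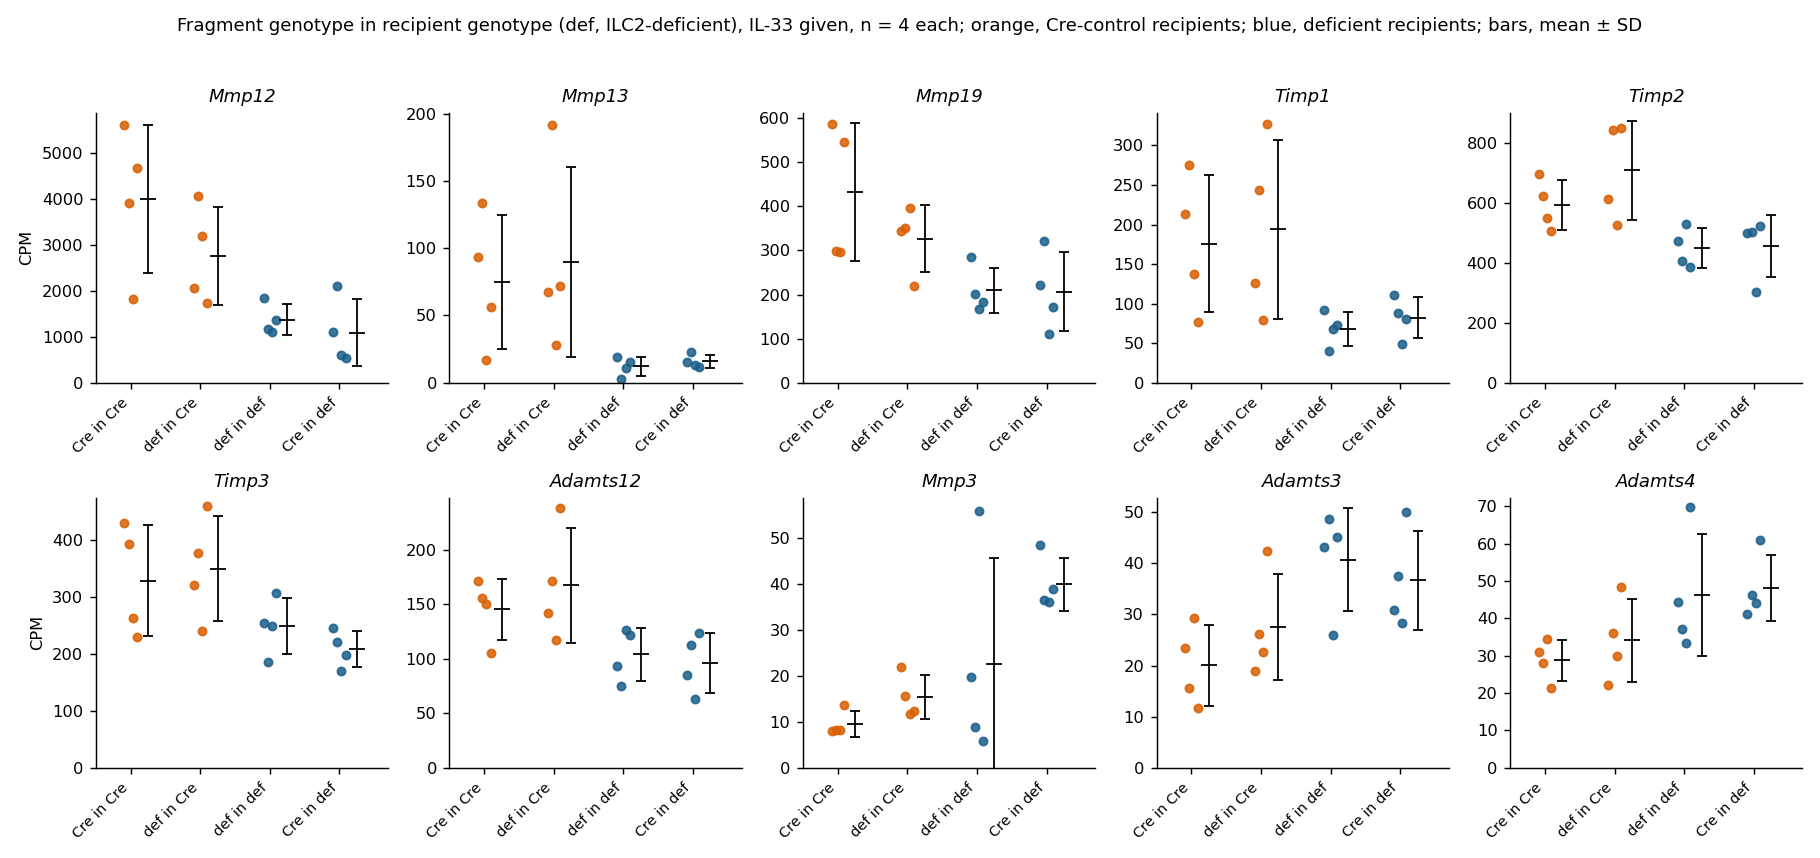
CPM of the 10 members called for recipient genotype, per library, with fragment in recipient on the horizontal axis (n = 4 each; mean ± SD beside the points, with parts of a bar under 0 not drawn). The first 7 panels show lower and the last 3 higher levels in the deficient recipients.

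Mmp3 (stromelysin 1, which cleaves matrix proteins and activates other MMPs; chromosome 9, 7445822 to 7455975, plus strand) was at 7.96, 8.35, 8.28 and 13.8 CPM in Cre fragments and at 22.1, 15.6, 11.7 and 12.3 CPM in deficient fragments of Cre-control recipients. It was at 48.5, 36.5, 36.2 and 39.1 CPM in Cre fragments of deficient recipients, above all 8 of these. Deficient fragments in deficient recipients varied widely, at 19.7, 8.82, 56.0 and 5.91 CPM. The difference over both fragments was 1.31 ± 0.42 (edgeR adjusted p = 0.0386).

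Adamts3 (chromosome 5, 89677087 to 89883334, minus strand), an enzyme that removes the amino-terminal propeptide of procollagen, was at 23.4, 15.7, 29.4 and 11.7 CPM in Cre fragments and 19.0, 26.1, 22.6 and 42.4 CPM in deficient fragments of Cre-control recipients. In deficient recipients it was at 43.2, 48.7, 26.0 and 45.1 CPM in deficient and 30.9, 37.6, 28.4 and 50.02 CPM in Cre fragments, all 8 above the median of the others (0.72 ± 0.21, edgeR adjusted p = 0.0240). Adamts4 (aggrecanase 1; chromosome 1, 171250421 to 171260637, plus strand) was at 30.9, 28.2, 34.5 and 21.4 and at 22.1, 36.2, 30.0 and 48.5 CPM in Cre and deficient fragments of Cre-control recipients. It was at 44.3, 37.2, 33.5 and 69.8 and at 41.2, 46.3, 44.2 and 61.0 CPM in deficient and Cre fragments of deficient recipients, again all 8 above the median of the others (0.59 ± 0.15, edgeR adjusted p = 0.0101). No member separated the 8 and 8 libraries without overlap (0 of 41, against 1.49% of all genes).

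The other proteases did not pass the test here. Values were -0.25 ± 0.15 for Mmp2 and 0.68 ± 0.33 for Mmp9 (gelatinases), 0.53 ± 0.39 for Mmp10 and -0.06 ± 0.33 for Mmp11 (stromelysins), 0.83 ± 1.05 for Mmp7 (matrilysin), 0.12 ± 0.41 for Mmp8 (neutrophil collagenase) and -0.12 ± 0.14 for Mmp14, the membrane-bound activator of Mmp2. They were 0.29 ± 0.14 for Adamts1, -0.20 ± 0.15 for Adamts5 and 0.25 ± 0.14 for Adamts9, which cleave versican or aggrecan. In the same lesions 2 of 10 macrophage markers (Mrc1 and Mertk) were lower and 1 (Fcgr1) higher in deficient recipients, with a summed level of 1069 to 1861 CPM against 1543 to 3476 CPM and no marker at 0 in any library. Of 7 ILC2 markers, 6 were lower, at 11.4 to 38.2 against 34.8 to 130 CPM in sum, and of 5 eosinophil markers 2 (Siglecf and Ear2) were lower, at 7.20 to 10.9 against 33.6 to 60.7 CPM in sum, with no overlap. Of 6 adipocyte markers 3 (Adipoq, Lep and Retn) were higher, and all 6 summed to 18.5 to 578 against 20.9 to 170 CPM. Of 4 mesothelium markers Lrrn4 was lower, and all 4 summed to 70.5 to 145 against 97.3 to 252 CPM. The part of these cells in the protease values was not tested.

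Between recipient genotypes DESeq2 called 11 members, the 10 of edgeR and Adamts6, with 14.2% of all genes called. Without the 4 libraries with liver markers the same comparison again called 10 members in edgeR. With only the 4 groups compared in the fit it called 7, and Adamts12, Adamts3 and Timp3 lost their calls (adjusted p = 0.0528, 0.0506 and 0.0529). Leaving out any single library left 7 to 10 calls, and Mmp12, Mmp13, Timp1, Timp2, Adamts4 and Adamts12 kept theirs in all 16 such fits. Mmp3 lost its call in 9 of 16 fits, and its value fell to 0.82 (adjusted p = 0.182) without deficient replicate 3; it kept the call only without deficient replicate 1, 2 or 4, Cre control replicate 4, replicate 2 or 3 of Cre fragments in deficient recipients or replicate 1 of deficient fragments in Cre-control recipients. Mmp19 lost its call in 9 fits (adjusted p = 0.0584 to 0.0795), those without deficient replicate 2, 3 or 4, Cre control replicate 1 or 4, replicate 3 or 4 of Cre fragments in deficient recipients or replicate 2 or 3 of deficient fragments in Cre-control recipients. Timp3 lost its call in 6 fits, those without deficient replicate 2, Cre control replicate 1 or 2, replicate 3 of Cre fragments in deficient recipients or replicate 2 or 4 of deficient fragments in Cre-control recipients (adjusted p = 0.0501 to 0.0655). Adamts3 lost its call without Cre control replicate 2 or 4, replicate 4 of Cre fragments in deficient recipients or replicate 1 of deficient fragments in Cre-control recipients (adjusted p at most 0.0592).

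The fragments of each genotype were then compared on their own (n = 4 against 4). Each comparison sets a lesion-transfer group against a group from another run of library names. Recipient genotype, transfer and run therefore cannot be told apart in either. The test of the difference between both kinds of fragment, given below, equally sets lesions in their own genotype against transferred lesions of other runs. In Cre fragments, Adamts6 (0.76 ± 0.18, edgeR adjusted p = 0.0135), Adamts4 (0.75 ± 0.21, adjusted p = 0.0427) and Mmp3 (2.06 ± 0.60, adjusted p = 0.0472) were higher and Mmp12 (-1.88 ± 0.43, adjusted p = 0.0124) lower in deficient recipients, 4 of 41 members against 4.05% of all genes. In deficient fragments, Mmp13 (-2.90 ± 0.76, edgeR adjusted p = 0.0245), Timp1 (-1.50 ± 0.43, adjusted p = 0.0389) and Timp2 (-0.66 ± 0.19, adjusted p = 0.0427) were lower, 3 of 41 members against 4.54% of all genes. The test of the difference between both kinds of fragment called no member (0 of 41 by edgeR and by DESeq2, with 0.414% of all genes called by edgeR), and 5 members had an unadjusted p under 0.05, as did 13.9% of all genes. The lowest p was that of Adamts6 (-0.80 ± 0.25, adjusted p = 0.0965), which was at 35.4, 36.1, 29.6 and 33.8 CPM in Cre fragments at home and at 39.03, 55.4, 50.1 and 83.4 CPM in deficient recipients. Without overlap between groups were 5 members in Cre fragments (9.38% of all genes), with Mmp3, Adamts4, Adamts6 and Adamts15 higher and Mmp28 lower, and 3 in deficient fragments (13.2% of all genes), with Mmp13, Adamts14 and Adamts16 lower. The calls rested on few libraries. In Cre fragments 1 call was left without replicate 3 or 4 from the deficient recipients, 3 calls without their replicate 1, and 2 calls when any of the other 5 libraries was left out. Mmp3 lost its call in all 8 fits and Adamts4 in 7, Mmp12 without replicate 3 from the deficient recipients (-1.66, adjusted p = 0.0562) and Adamts6 without their replicate 4 (0.51, adjusted p = 0.0720). In deficient fragments none was left without deficient replicate 2 or 4 or Cre-control recipient replicate 2, 1 without replicate 4 of those recipients, and 4 without their replicate 3. There Mmp13 lost its call in 3 of 8 fits, Timp1 in 5 and Timp2 in 6, and all 3 lost theirs without the libraries with liver markers.

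**Figure D3:**
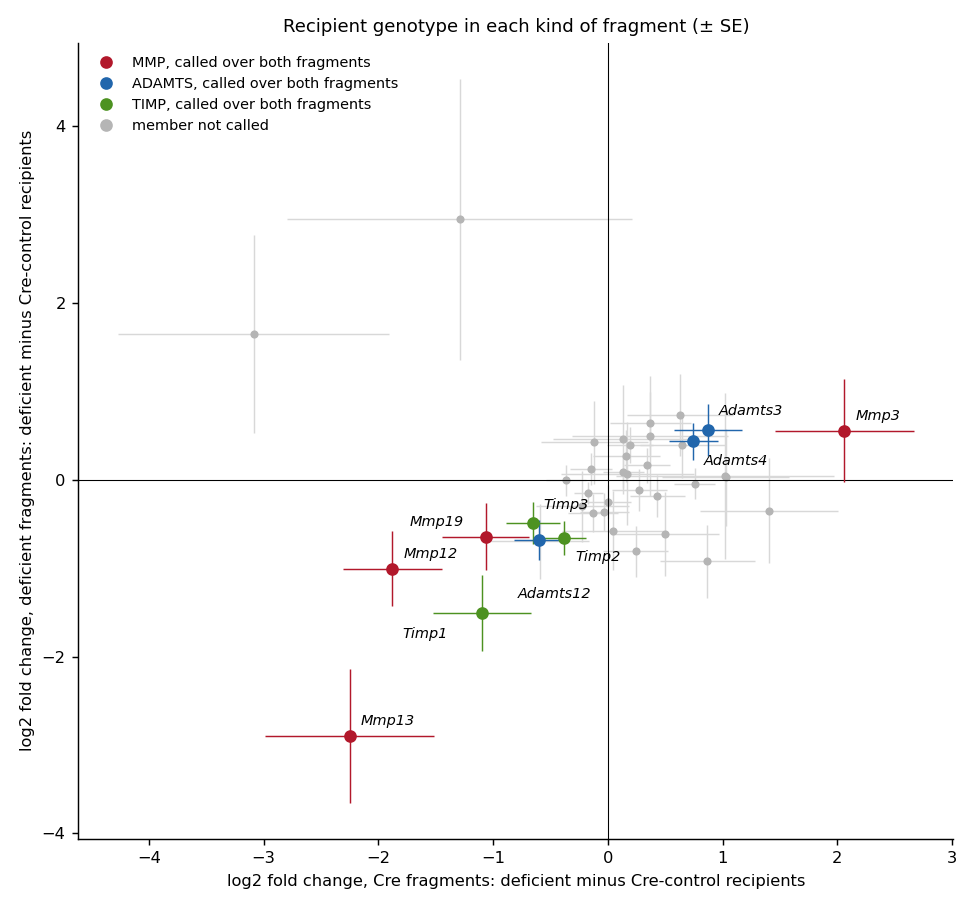
Log2 fold change ± SE of each member between recipient genotypes in Cre fragments (horizontal) and deficient fragments (vertical); coloured points are the 10 members called over both fragments. All 10 lie in the lower left or upper right corner area, with Mmp13 at -2.25 and -2.90 and Mmp3 at 2.06 and 0.55. They were called on the mean of both values, so that their shared sign is not separate support. Of all 41 members, 28 had the same sign in both kinds of fragment, and the share over all genes was not computed. Grey points with long bars are low or variable members such as Mmp7 and Adamts13.

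The genotype of the fragment itself, averaged over both recipients (n = 8 each), gave no called member (0 of 41 by edgeR and by DESeq2, with 0.00471% of all genes called). At an unadjusted p under 0.05, where edgeR listed 3.92% of all genes, there were 4 members: Mmp11 at -0.96 ± 0.34, Mmp25 at -0.70 ± 0.29, Adamts7 at -0.48 ± 0.17 and Adamts19 at 0.62 ± 0.30. For the members that differed by recipient the fragment values were near 0, at -0.06 ± 0.50 for Mmp13, -0.10 ± 0.30 for Mmp12, -0.06 ± 0.30 for Timp1 and -0.07 ± 0.41 for Mmp3.

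Lesions of IL-33-treated deficient mice (n = 4) were set against those of the 3 competent genotypes (n = 12), the contrast named in the series' design. Here 4 ADAMTS genes were higher (Adamts3, Adamts4, Adamts1 and Adamts9) and 2 MMPs lower (Mmp19 and Mmp12), so that 6 of 41 members (14.6%) were called, against 11% of all genes, 6.24% higher and 4.72% lower. Among the 7 versican- and aggrecan-cleaving ADAMTS genes 3 were higher and none lower, with a median log2 fold change of 0.38, against -0.01 over all genes. These values share the deficient and Cre-control libraries with the recipient comparison and are not independent of it.

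Adamts3 was at 43.2, 48.7, 26.0 and 45.1 CPM in deficient lesions. It was at 22.1, 20.1, 24.96 and 16.2 CPM in wild type, 10.8, 13.8, 13.6 and 15.7 CPM in floxed controls and 23.4, 15.7, 29.4 and 11.7 CPM in Cre controls, so that 3 of the 4 deficient libraries lay above all 12 (1.19 ± 0.23, edgeR adjusted p = 0.00113). Adamts4 was at 44.3, 37.2, 33.5 and 69.8 CPM in deficient lesions. It ranged over 20.7 to 30.3 CPM in wild type, 16.5 to 23.3 CPM in floxed controls and 21.4 to 34.5 CPM in Cre controls, again below 3 of the 4 deficient libraries (0.94 ± 0.17, edgeR adjusted p = 0.000542). Adamts1 (chromosome 16, 85793827 to 85803113, minus strand), a versican-cleaving enzyme induced at ovulation, was at 131, 185, 105 and 136 CPM against 71.3 to 124 CPM (0.61 ± 0.16, edgeR adjusted p = 0.0121). Adamts9 (chromosome 6, 92772699 to 92943492, minus strand) was at 146.7, 155 and 198 CPM in 3 deficient libraries, above the 83.0 to 130.1 CPM of all competent ones, and within that range in replicate 2 (0.59 ± 0.16, edgeR adjusted p = 0.0137).

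Mmp19 was at 284, 202, 168 and 183 CPM in deficient lesions and at 229 to 955 CPM (median 468) in the competent ones (-1.13 ± 0.33, edgeR adjusted p = 0.0239). Mmp12 was at 1847, 1175, 1116 and 1367 CPM against 1254 to 5615 CPM (median 2268), a difference of -1.11 ± 0.37 that lay close to the threshold (edgeR adjusted p = 0.0462). Adamts2, a procollagen N-propeptidase, was the single member without overlap (1 of 41, against 2.73% of all genes). It was at 403 to 440.3 CPM in deficient and 247 to 392 CPM in competent lesions. It missed the threshold in edgeR (0.42 ± 0.14, edgeR adjusted p = 0.0514) and passed in DESeq2, which called 8 members and 14.2% of all genes. Mmp9 (gelatinase B) was at 82.0, 50.2, 73.7 and 47.3 CPM against 15.5 to 57.9 CPM (1.06 ± 0.36, edgeR adjusted p = 0.0521, and 0.0317 by DESeq2), and passed in edgeR without floxed replicate 3 (1.16, adjusted p = 0.0342) or Cre control replicate 3 (1.11, adjusted p = 0.0451).

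The members left did not pass. Values were 0.95 ± 0.43 for Mmp10, 0.81 ± 0.46 for Mmp3, -0.81 ± 0.40 for Mmp11, 1.43 ± 1.13 for Mmp7, 0.69 ± 0.46 for Mmp8, -1.32 ± 0.63 for Mmp13, -0.16 ± 0.18 for Mmp2, 0.03 ± 0.16 for Mmp14 and -0.03 ± 0.18 for Adamts5. All 4 inhibitors had negative values, at -0.58 ± 0.36 for Timp1, -0.27 ± 0.16 for Timp2, -0.06 ± 0.19 for Timp3 and -0.35 ± 0.78 for Timp4, none of which passed. Mmp3 rested on replicate 3 of the deficient group, without which it was at -0.17 (adjusted p = 0.861). Macrophage markers gave 1 call of 10 (Fcgr1, higher), with 1069 to 1694 CPM in sum in deficient and 912 to 2443 CPM in competent lesions. Of 5 eosinophil markers Ear2 was lower, at 7.45 to 10.7 against 21.8 to 80.1 CPM in sum, with no overlap. Higher markers were Adipoq, Lep and Retn of 6 for adipocytes and Krt19 of 10 for epithelium. Lum of 10 for stroma and Cpa3 of 6 for mast cells were also higher. In sum the lists were at 18.5 to 578 against 24.8 to 181 CPM for adipocytes and 593 to 4256 against 50.9 to 2387 CPM for epithelium. They were at 23610 to 32192 against 20082 to 42643 CPM for stroma and 46.2 to 98.3 against 28.8 to 74.3 CPM for mast cells. The part of these cells in the member values was not tested. Leaving out deficient replicate 2 or 4 left 3 calls, with Adamts1 lost in the first case (0.45, adjusted p = 0.116), Adamts9 in the second (0.46, adjusted p = 0.133) and Mmp19 in both and without replicate 3 (adjusted p = 0.0682 to 0.114). Mmp12 kept its call only without replicate 3 or 4 of wild type, replicate 1 of the floxed controls or replicate 3 of the Cre controls (0.0515 to 0.152 in the other 12 fits), and without the 4 libraries with liver markers it was at -1.17 (adjusted p = 0.0554) and Adamts1 at 0.43 (adjusted p = 0.121). Adamts3 and Adamts4 passed in all 16 such fits.

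The 3 competent genotypes were also taken singly. Mmp13 was at 4.64, 15.6, 11.2 and 10.02 CPM in floxed controls, at 53.3, 31.8, 32.8 and 21.9 CPM in wild type and at 93.4, 133, 16.8 and 56.2 CPM in Cre controls. The floxed libraries thus lay within the range of the deficient ones (2.85 to 19.2 CPM) and below all Cre-control libraries. Against the Cre controls alone, with which they share a run of library names, deficient lesions had log2 fold changes of -2.64 for Mmp13 (edgeR adjusted p = 0.0421), -1.54 for Mmp12 (adjusted p = 0.0372) and 1.02 for Adamts3 (adjusted p = 0.0484). Against the floxed controls alone Mmp13 was at 0.22 (adjusted p = 0.871), Timp1 at 0.11 (adjusted p = 0.892) and Mmp12 at -0.43 (adjusted p = 0.540), while Adamts3 (1.60, adjusted p = 0.00331), Adamts4 (1.21, adjusted p = 0.00234), Adamts1 (0.91, adjusted p = 0.00749), Adamts9 (0.79, adjusted p = 0.0135) and Mmp10 (2.01, adjusted p = 0.0278) were higher. Against wild type alone Adamts3, Adamts4, Mmp12 and Mmp19 passed, so that only Adamts3 passed against each of the 3 genotypes.

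Cre and floxed controls were also compared directly (n = 4 each). The single called member was Adamts20, which cleaves versican, at 2.89, 6.00, 1.67 and 2.70 CPM in Cre and 27.3, 21.3, 20.1 and 16.4 CPM in floxed controls (-2.68 ± 0.63, edgeR adjusted p = 0.0489; 1 of 41, against 0.329% of all genes). It lost its call in 7 of 8 fits that left out a library and kept it only without replicate 2 of the Cre controls. Mmp13 (2.86 ± 0.76, adjusted p = 0.118) and Timp1 (1.47 ± 0.43, adjusted p = 0.159) missed the threshold in edgeR and passed in DESeq2, which called 3 members and 1.07% of all genes. Wild type differed from the mean of both controls in Adamts6 alone, at 40.8 to 60.3 CPM against 24.1 to 36.1 CPM (0.60 ± 0.14, edgeR adjusted p = 0.0271; 1 of 41, against 2.65% of all genes). It was the single member without overlap there (3.35% of all genes), and its call was lost in 4 of 12 fits that left out a library, wild type replicate 1, 2 or 4 or floxed replicate 2 (adjusted p = 0.0513 to 0.133), and without the libraries with liver markers.

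**Figure D4:**
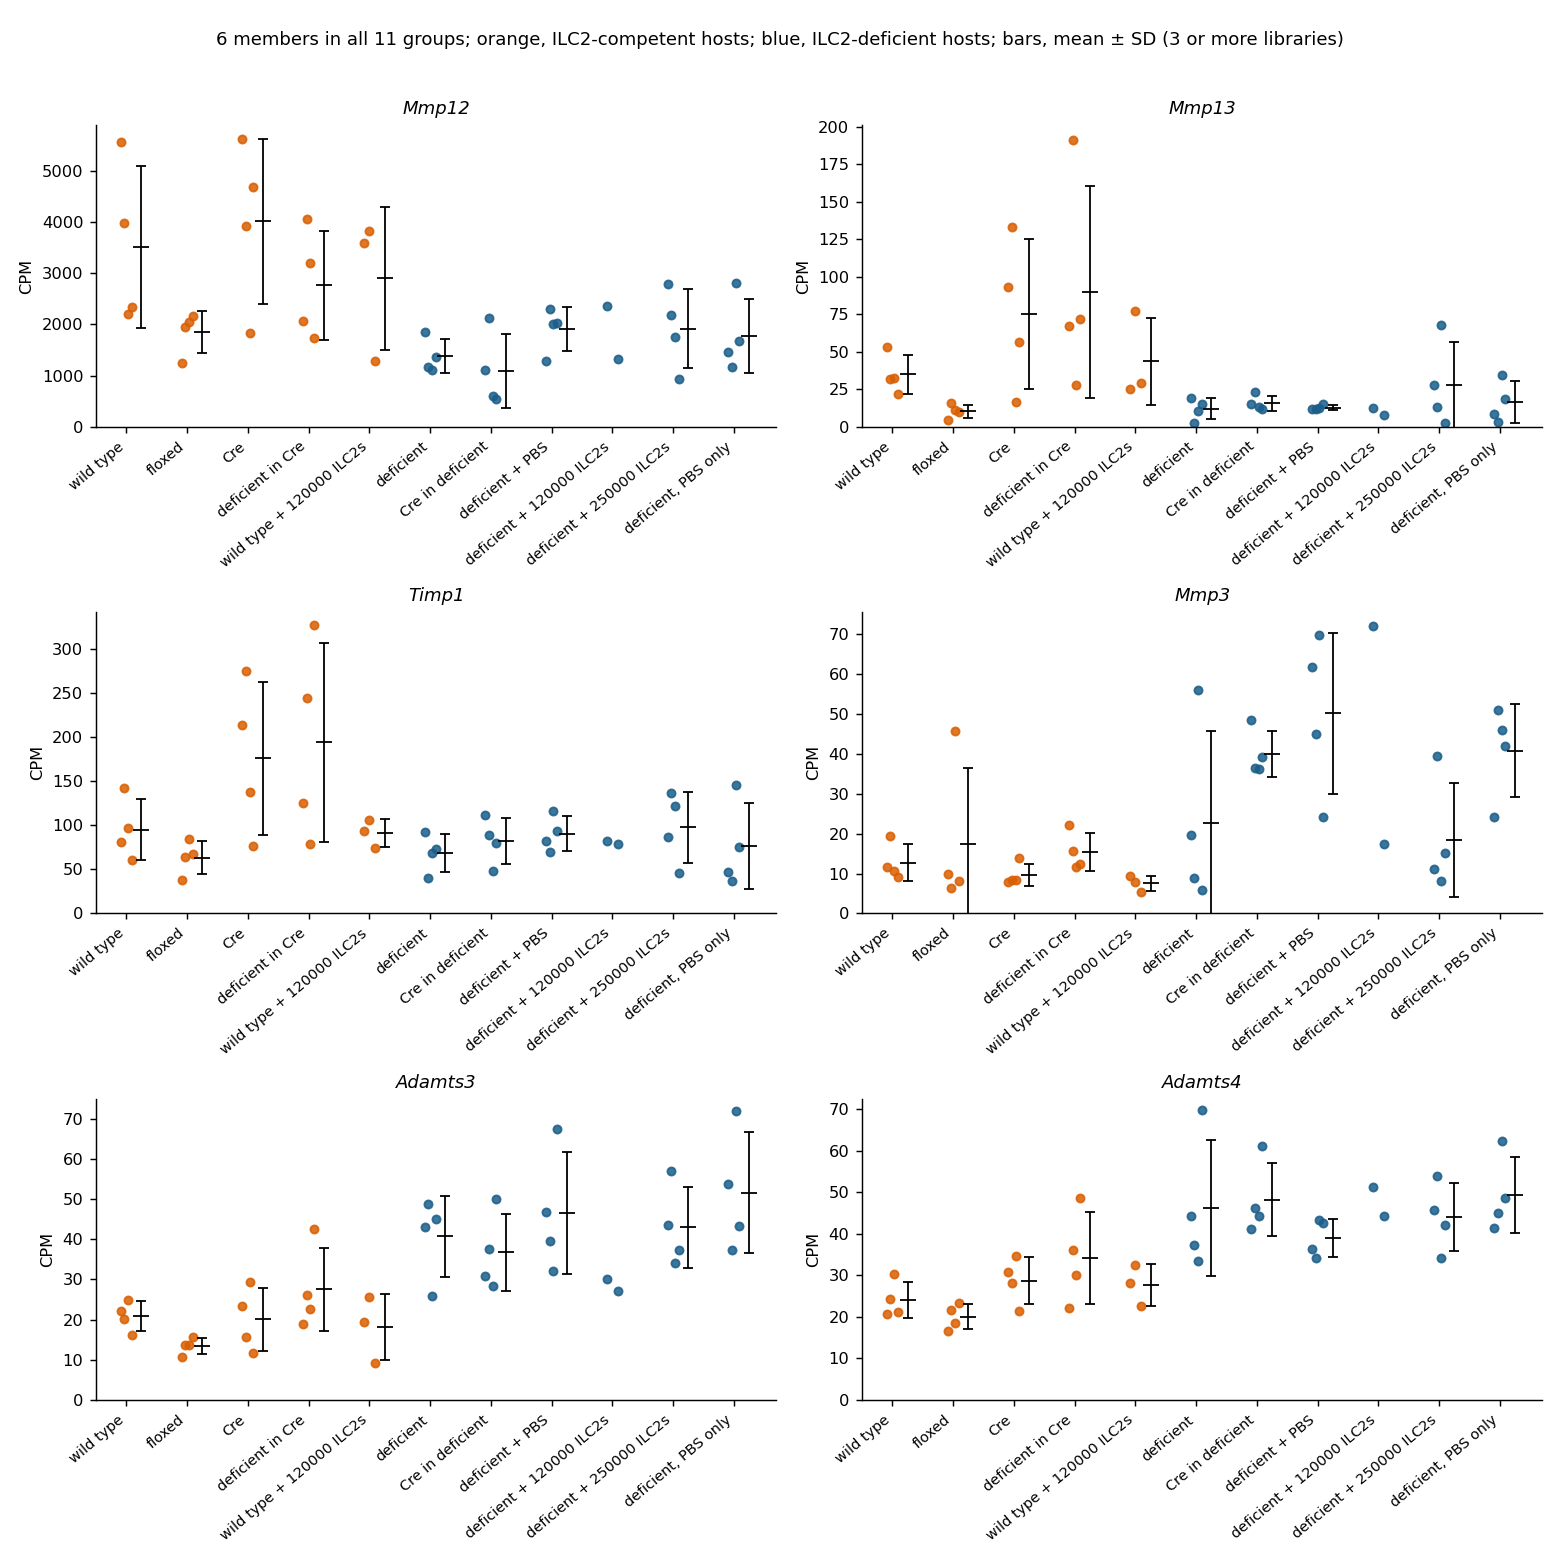
CPM of 6 members in each library of all 11 groups, ILC2-competent hosts in orange and deficient hosts in blue, with mean ± SD for groups of 3 or more libraries (parts of a bar under 0 not drawn). Adamts4 lies between 33.5 and 69.8 CPM in all 22 libraries of deficient hosts, and Mmp13 of the floxed controls lies with the deficient hosts.

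The 11 groups were also read by host, that is by the genotype of the recipient. Adamts4 was at 33.5 to 69.8 CPM (median 44.2) in the 22 libraries from deficient hosts and at 16.5 to 48.5 CPM (median 24.3) in the 19 from competent hosts. Adamts3 was at 26.0 to 71.9 CPM (median 41.4) and at 9.28 to 42.4 CPM (median 19.4). Mmp12 was at 542 to 2801 CPM (median 1570) and at 1254 to 5615 CPM (median 2339), and Mmp13 at 2.35 to 67.9 CPM (median 12.7) and at 4.64 to 191 CPM (median 31.8). Mmp9 was at 20.2 to 147.2 CPM (median 67.5) in deficient and at 15.5 to 62.0 CPM (median 29.1) in competent hosts. The other members called for recipient genotype are given as medians in deficient and competent hosts. These were 81.2 and 93.9 CPM for Timp1, 507 and 549 for Timp2 and 231 and 258 for Timp3. They were 89.3 and 137 CPM for Adamts12, 243 and 374 for Mmp19 and 37.8 and 9.75 for Mmp3. The ranges of each of these members overlapped between hosts. These ranges and medians pool groups of different treatment and run, and no test was made over them.

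Within the deficient genotype neither IL-33 nor ILC2 transfer gave a called member. IL-33 against PBS (n = 4 each) had 0 calls by edgeR and by DESeq2 and 2 members at an unadjusted p under 0.05, Mmp28 (0.40 ± 0.18) and Adamts13 (2.39 ± 1.15, with 1 library holding liver markers), where edgeR called 0.00941% of all genes and 6.76% had an unadjusted p under 0.05. Mmp12 was at 1469, 1160, 2801 and 1671 CPM with PBS and at 1847, 1175, 1116 and 1367 CPM with IL-33, and Adamts4 at 41.4 to 62.3 and 33.5 to 69.8 CPM. Mmp3 was at 24.2, 50.9, 46.0 and 42.1 CPM with PBS and at 19.7, 8.82, 56.0 and 5.91 CPM with IL-33 (-0.85 ± 0.58, edgeR adjusted p = 0.892).

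Transfer of 250000 ILC2s was compared with added PBS (n = 4 each). No member was called (0 of 41 by edgeR and by DESeq2, against 0% of all genes by edgeR), and Mmp3 alone of the members had an unadjusted p under 0.05, as did 8.7% of all genes. It was at 61.8, 44.9, 69.7 and 24.1 CPM with added PBS and at 11.1, 39.5, 8.01 and 15.05 CPM after transfer, with overlap in 1 library (-1.45 ± 0.59, edgeR adjusted p = 0.567). Mmp13 was at 11.7, 11.8, 12.2 and 15.5 CPM with added PBS and at 28.0, 13.1, 67.9 and 2.35 CPM after transfer (1.12 ± 0.72, edgeR adjusted p = 0.629). Mmp12 was at 1292 to 2298 CPM and at 940.3 to 2788 CPM (0.01 ± 0.42), and Adamts3 and Adamts4 differed by -0.11 ± 0.30 and 0.17 ± 0.21, none past the threshold. The 7 ILC2 markers summed to 15.3 to 19.0 CPM with added PBS and to 8.67 to 26.7 CPM after transfer.

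Transfer of 120000 ILC2s called no member in deficient (n = 2 against 4) or wild-type mice (n = 3 against 4) by edgeR or DESeq2, where edgeR called 0% of all genes in each. The members at an unadjusted p under 0.05 were Adamts16 in deficient (-1.48 ± 0.58, with 1.88% of all genes) and Mmp15 in wild-type lesions (0.89 ± 0.31, with 3.96% of all genes). Both deficient libraries held 2355 and 1326 CPM of Mmp12 and 12.4 and 7.76 CPM of Mmp13, against 1116 to 1847 and 2.85 to 19.2 CPM in the group without cells. The ILC2 markers summed to 9.72 to 11.8 CPM in these libraries, against 11.4 to 19.4 CPM without cells. In wild-type lesions they summed to 32.2 to 49.6 CPM with and 37.4 to 55.6 CPM without transferred cells. Added PBS against IL-33 alone called no member (0 of 41 by edgeR and by DESeq2, with 0.0141% of all genes called by edgeR), and 4 members had an unadjusted p under 0.05, as did 16.4% of all genes. The comparisons of 120000 ILC2s, of added PBS with IL-33 alone and of IL-33 with PBS each also lie between runs of library names. Libraries with 250000 ILC2s and with added PBS have interleaved names. A missed threshold does not show that levels were alike.

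Other genes of the pathway were taken from a list of 50 activators, related proteases, inhibitors, cytokines and substrates, of which 48 were measured. Between recipient genotypes, 7 were lower and 4 higher in deficient recipients (22.9% of the list, where 6.29% of all genes were lower and 5.02% higher). The lower ones were Plaur, the receptor of the plasminogen activator urokinase (-1.33 ± 0.24), the serine protease inhibitor Serpina3n (-1.97 ± 0.38), the membrane proteases Adam8 (-1.16 ± 0.27) and Adam15 (-0.65 ± 0.15), the substrate fibronectin, Fn1 (-1.04 ± 0.22), the growth factor Tgfb1 (-0.58 ± 0.15) and the clearance receptor Lrp1 (-0.42 ± 0.13), with edgeR adjusted p-values of 0.000471 to 0.0309. The higher ones were Papln, an ADAMTS-like protein of the matrix (1.89 ± 0.41), the substrates aggrecan, Acan (1.83 ± 0.50), and elastin, Eln (1.01 ± 0.27), and the cytokine Il1b (1.11 ± 0.37), with edgeR adjusted p-values of 0.00262 to 0.0477. Between deficient and competent lesions, 5 were higher (Papln, Il1b, Eln, Vcan and Thbs1) and 3 lower (Plaur, Serpina3n and Adam15), which is 16.7% of the list, where 6.24% of all genes were higher and 4.72% lower. Versican, Vcan, the substrate of several of the ADAMTS genes that were higher, was at 0.79 ± 0.21 (edgeR adjusted p = 0.0129).

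Levels of 8 members were set against marker scores of the cells known to make them, after removing each group's mean (41 libraries, Pearson's r and Spearman's rho, permutation within groups, adjusted over the 8 relations). Mmp7 followed the epithelium score (r = 0.877, rho = 0.848), Mmp8 the neutrophil score (r = 0.773, rho = 0.775) and Mmp9 the same score (r = 0.650, rho = 0.649). For Mmp7 and Mmp8 the adjusted permutation p of 4e-05 rests on the smallest p the permutations can give, and for Mmp9 it was 0.00028. Mmp12 followed the macrophage score (r = 0.619, rho = 0.647, adjusted permutation p = 0.00016), Timp4 the adipocyte score (r = 0.596, rho = 0.523, adjusted permutation p = 0.00375), Mmp11 the stroma score (r = 0.564, rho = 0.563, adjusted permutation p = 0.00261) and Mmp25 the neutrophil score (r = 0.549, rho = 0.645, adjusted permutation p = 0.00363). Without the 2 libraries farthest from the median score these 7 had r of 0.402 (Mmp11) to 0.872 (Mmp7), and all 7 passed. Mmp2 did not follow the stroma score (r = 0.0019, rho = 0.0956, adjusted permutation p = 0.993), though r was 0.307 (adjusted permutation p = 0.0742) without the 2 libraries. The points are whole lesions, so that a shared cell share and a shared level per cell give the same relation.

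**Figure D5:**
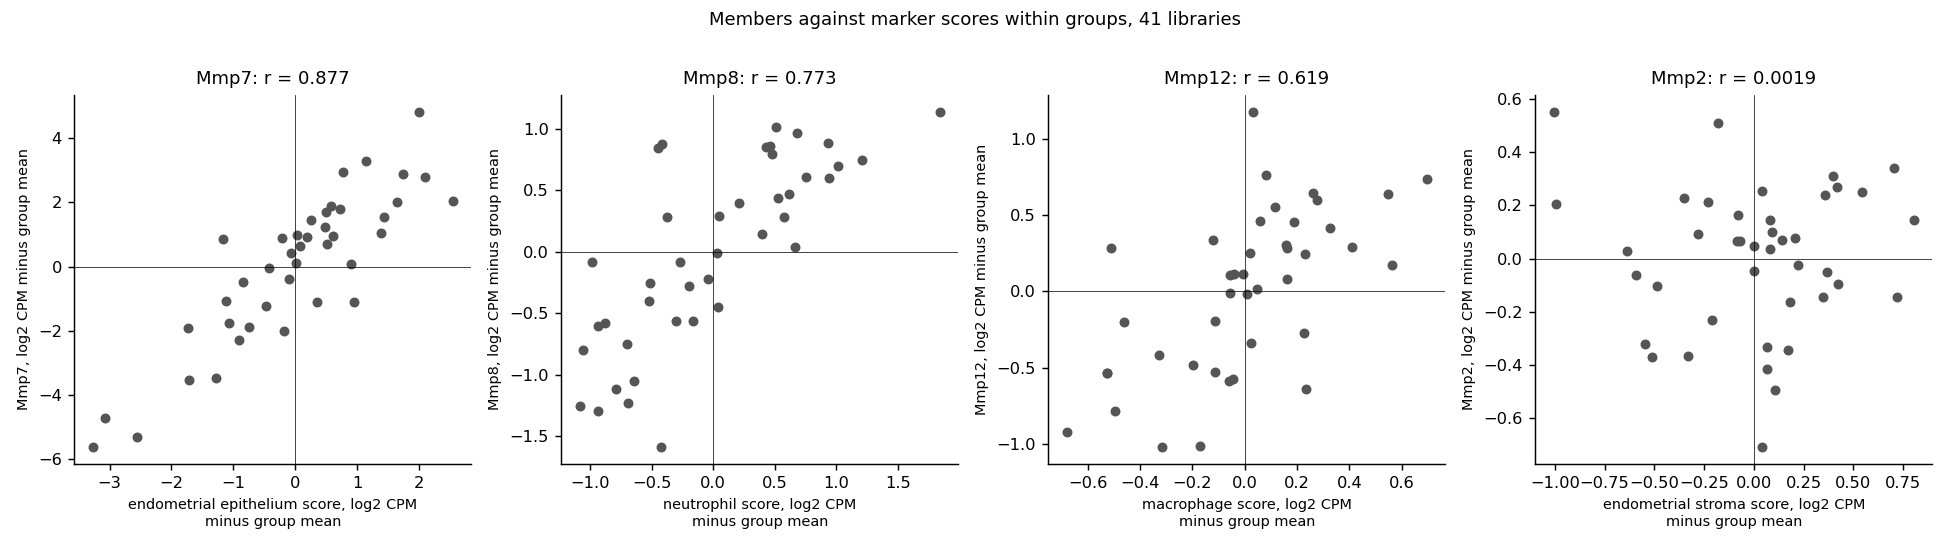
Log2 CPM of 4 members against a marker score (mean log2 CPM of the list), both with the group mean removed, for 41 libraries. Mmp7, Mmp8 and Mmp12 rise with the score of their list (r = 0.877, 0.773 and 0.619), and Mmp2 shows no relation with the stroma score (r = 0.0019).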

How the data were processed

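The authors deposited a raw count for each of 21249 genes in 41 libraries. The submitters' processing notes name Trimmomatic, STAR, HTSeq, edgeR and limma with GRCm38; versions, strand setting and annotation are not given in the sources used here, so that overlapping genes cannot be separated. Per the labels' protocols, RNA came from frozen lesions and libraries from the NEBNext UltraExpress kit. The lowest gene total was 411 counts, so genes with fewer had been left out. Depth, 28884926 to 70526624 counts a library, sets the counting error. Nothing in the labels ties replicates to separate animals, and p-values therefore describe spread between samples that may be technical. In 58 within-group pairs, libraries differed by more than sampling noise (chi-square over its degrees of freedom, 20.3 to 1326).

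Groups came from sample titles. The test was edgeR's two-sided robust quasi-likelihood test (edgeR 4.0.16 on R 4.3.3, TMM scaling). All 11 groups entered a single fit, with 13 contrasts and Benjamini-Hochberg adjustment over all genes at 0.05. The filterByExpr rule removed 0 genes. CPM is per TMM-scaled library, log2 CPM has 2 as its prior count, and each SE was obtained from the fold change and its F statistic. The script was checked on simulated data. Positions and exon lengths (union of exons) came from GENCODE M21, where all 41 members matched. In every comparison each member past the threshold was named, and a list of MMPs, ADAMTS and TIMPs was named in both main comparisons whatever its result. The members, lists and tests were chosen with earlier results of these data known. Alternatives were DESeq2 1.42.0, its size factors, a fit of the compared groups alone, a CPM filter, a replicate block, leaving out each library, leaving out the 4 libraries with liver markers and, added after seeing the data, each competent genotype alone.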

Additional observations from a re-analysis of the deposited data

Results flagged for a closer look

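In 162 checks of a group of 4 libraries over 18 members, 11 values lay far from the other 3 of their group (Dixon's test at 95%). Chance would give about 1 in 20 groups, or 8.1. In Cre fragments of deficient recipients, replicate 3 was low in Mmp2 (432 CPM against 673 to 701) and in Timp2 (302 CPM against 498 to 521). In floxed controls, replicate 3 was high in Mmp3 (45.8 CPM against 6.28 to 9.75), replicate 1 low in Mmp19 (337 CPM against 464 to 486) and replicate 2 low in Timp3 (144 CPM against 258 to 274). In Cre controls, replicate 4 was high in Mmp3 (13.8 CPM against 7.96 to 8.35) and replicate 1 in Adamts1 (109.97 CPM against 88.5 to 92.0). Mmp7 was high in replicate 3 of wild type (20.5 CPM against 0.661 to 2.82) and in replicate 3 of the deficient group with added PBS (14.6 CPM against 0 to 0.935). In that group Mmp13 was high in replicate 4 (15.5 CPM against 11.7 to 12.2). Adamts6 was high in replicate 4 of the deficient fragments in Cre-control recipients (50.6 CPM against 39.3 to 40.9).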

How the results depend on the processing

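Counts of called members changed where groups were split. With only the compared groups in the fit, recipient genotype over both fragments gave 7 calls of 10 (Adamts12, Adamts3 and Timp3 being lost). Deficient against competent lesions gave 8 calls in place of 6 (Mmp9 among those gained), and both changes stayed under 1.5 times. In that fit 4 counts moved by over 1.5 times. Recipient genotype in Cre fragments gave 1 call, in deficient fragments 0, Cre against floxed controls 0 and wild type against both 0. With a replicate block, Cre fragments gave 2 calls and deficient fragments 1, and all recipients 9 of 10, Mmp3 being lost (1.18, adjusted p = 0.0684); the block changed no other call for all recipients or for deficient against competent lesions. The numbers did not pair the samples (correlations of same-numbered libraries of -0.598 to 0.570 between recipients, over 0.1 in 8 of 16). Without the 4 libraries with liver markers, deficient fragments gave 0 and wild type against both 0. DESeq2 gave 3 for Cre against floxed controls, and Cre controls alone gave 3 for deficient against competent lesions.

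Leaving out 1 library, counts ran from 3 to 7 for deficient against competent lesions, 7 to 10 for recipients, 1 to 3 and 0 to 4 for recipients in Cre and deficient fragments, 0 to 1 for wild type against both and 0 to 1 for Cre against floxed controls.

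Directions turned where values were near 0 or genotypes differed. Without liver libraries Adamts5 was 0.0085 (deficient against competent), Mmp11 0.11 (recipients) and the r of Mmp2 with stroma -0.0801. Deficient against Cre controls alone gave -0.22 for Mmp14 and 0.69 for Timp4; against floxed controls 0.22 for Mmp13, 0.11 for Timp1, 0.083 for Timp3 and 0.13 for Adamts5; against wild type 0.13 for Timp3. Leaving out 1 library, values for deficient against competent lesions ran from -0.29 to 0.11 for Adamts5, -0.012 to 0.12 for Mmp14, -0.17 to 1.18 for Mmp3, -0.17 to 0.066 for Timp3 and -1.77 to 0.045 for Timp4, and values for recipients from -0.40 to 0.099 for Mmp11, -0.045 to 0.27 for Mmp8 and -0.18 to 0.90 for Timp4. The cause was not tested. All 41 members stayed in a filter of 1 CPM in 4 libraries, which changed no count of members, and another scaling moved the median of all genes by at most 0.03. Depth limits the members of few counts, such as Adamts13, Mmp27 and Adamts18.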
